A study of Mus musculus with 4 samples.

Results

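The cyclin, cyclin-dependent kinase (Cdk), Cdk inhibitor, E2f and Rb family genes were examined in the H3K4me3 HiChIP interactions of mouse bone marrow-derived macrophages (BMDMs). The set holds 45 of the 20720 protein-coding genes annotated by GENCODE M21 on the chromosomes of the list, and it was chosen by name. An interaction was assigned to a gene when either of its 5-kb bins held a transcription start site (TSS) of that gene, which gave 765 of the 237102 listed interactions (0.323%). BMDMs of C57BL/6J mice were grown from bone marrow in M-CSF for 7 days and were then left untreated (basal, 2 samples) or received 20 ng/mL of IL-4 for 24 h (2 samples). HiChIP captures DNA contacts made by chromatin carrying H3K4me3, a histone mark of active promoters. The interactions were called on the merged reads of the 4 samples, so that the list carries neither replicates nor conditions, basal and IL-4 BMDMs could not be compared, and how deeply each library was sequenced is unknown.

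The D cyclins are made in response to growth factors such as M-CSF, the cytokine that drives the growth and survival of macrophages. With Cdk4 or Cdk6 they phosphorylate Rb and its relatives, which releases E2f transcription factors to turn on the genes of DNA replication, and cyclin E with Cdk2 and then cyclins A and B with Cdk1 carry the cell through S phase and mitosis. The INK4 inhibitors (Cdkn2a, Cdkn2b, Cdkn2c and Cdkn2d) block Cdk4 and Cdk6, whereas the Cip/Kip inhibitors (Cdkn1a and Cdkn1b) act on several Cdks. Promoters of the mitotic genes are repressed in resting cells by the DREAM complex, which is built on the Rb relatives encoded by Rbl1 and Rbl2 and binds the cell cycle homology region (CHR), and they are activated in dividing cells with the help of NF-Y at CCAAT boxes.

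Each interaction carries an observed count of read pairs and the count that the authors' model expected for that bin pair. Their ratio was 3.11 at the median of the whole list and never below 2, and it rose with distance, from a median of 2.43 up to 50 kb to 4.31 beyond 500 kb, so that ratios at unlike distances are not directly comparable. Intervals given with a ratio are exact 95% Poisson intervals of the observed count, and those given with a share are 95% Wilson intervals. They reflect counting error alone, since adjacent bin pairs share fragments and are not independent. As a check of the cell type label, all 12 macrophage markers examined had an interaction (median 12). Maf and Mertk were highest at 204 and 42. None was listed for 4 of 7 T cell, 2 of 6 B cell and 3 of 8 neutrophil markers, with medians of 0, 1 and 1.5. The shares of those lists with an interaction were 42.9%, 66.7% and 62.5%. Over all protein-coding genes the share was 63.2% and the median 2, so the B cell and neutrophil lists were near the share of all genes.

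The promoters of the mitotic genes are shown first because CCAAT and CHR words recur in them. RefSeq promoter windows of GRCm38.p6, from 250 bases before to 50 bases after each start site, were matched by symbol for 37 of the 45 genes (43 windows). Windows for Ccna2, Ccnd1, Ccnd2, Ccne2, Ccnh, E2f4, E2f5 and Rb1 were not matched. Both strands were searched for CCAAT (the NF-Y box), for the CHR word TTTGAA and its variant TTCGAA, for the E2F words TTTCCCGC, TTTCGCGC, TTTGCCGC and TTTGGCGC, and for TATAAA (the TATA box), and none of these words contains another. The 250 bases upstream of Ccnb1 (chr13:100786487-100786736, minus strand), Ccnb2 (chr9:70421555-70421804, minus strand), Ccnf (chr17:24251410-24251659, minus strand) and Cdk1 (chr10:69352913-69353162, minus strand) read 5′ to 3′ as follows, with each match in capitals. A match on the opposite strand appears as its reverse complement, for example ATTGG for CCAAT.
Ccnb1: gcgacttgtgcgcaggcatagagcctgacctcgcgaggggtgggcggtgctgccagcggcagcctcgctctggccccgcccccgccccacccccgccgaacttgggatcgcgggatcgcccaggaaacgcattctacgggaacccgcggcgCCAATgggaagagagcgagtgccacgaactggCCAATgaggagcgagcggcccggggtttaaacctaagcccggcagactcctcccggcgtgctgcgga
Ccnb2: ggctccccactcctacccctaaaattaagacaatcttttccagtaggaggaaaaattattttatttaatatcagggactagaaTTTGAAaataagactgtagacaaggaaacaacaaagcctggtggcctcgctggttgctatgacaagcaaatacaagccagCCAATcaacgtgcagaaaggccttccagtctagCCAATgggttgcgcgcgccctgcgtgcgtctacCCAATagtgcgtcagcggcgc
Ccnf: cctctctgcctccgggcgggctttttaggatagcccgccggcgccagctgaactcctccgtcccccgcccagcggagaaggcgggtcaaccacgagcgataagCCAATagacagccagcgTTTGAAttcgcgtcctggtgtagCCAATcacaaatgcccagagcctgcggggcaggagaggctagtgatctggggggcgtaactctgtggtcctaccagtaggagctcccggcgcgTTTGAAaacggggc
Cdk1: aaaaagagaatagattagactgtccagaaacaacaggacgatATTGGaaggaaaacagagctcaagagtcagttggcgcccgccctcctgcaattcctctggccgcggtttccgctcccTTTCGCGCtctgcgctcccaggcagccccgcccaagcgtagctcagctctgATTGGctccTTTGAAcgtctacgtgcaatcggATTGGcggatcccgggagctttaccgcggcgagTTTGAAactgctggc

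All 4 mitotic windows held a CCAAT box, which 38.2% of the 21262 windows of protein-coding genes hold, and 3 of the 4 held a CHR word, which 17.6% hold. Cdk1 carried CCAAT at −208, −80 and −48 from the start site, CHR words at −71 and −15 and the E2F word at −131. Ccnb2 had CCAAT at −87, −54 and −21, and its CHR words stood at −167 and, beyond the printed stretch, at 5 bases after the start. In Ccnf the CCAAT boxes were at −147 and −107 and the CHR words at −130 and −14, and Ccnb1 held CCAAT at −99 and −67 and no CHR word in the letters searched. These matches are descriptions of the sequence, and binding was not measured here.

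Among the D cyclins and Cdk inhibitors, 7 genes had 11 windows, of which 5 held CCAAT, 1 a CHR word and 1 an E2F word. Counted by gene, CCAAT was present in 5 of 7 (71.4%) and in all 4 mitotic genes, beside 42.3% of all genes. The windows below were picked as examples of an upstream match of each kind: CCAAT in Cdkn1b (chr6:134920151-134920400, plus strand), the CHR word in Cdkn2b (chr4:89311033-89311282, minus strand) and the E2F word in the upstream window of Cdkn2a (chr4:89294620-89294869, minus strand).
Cdkn1b: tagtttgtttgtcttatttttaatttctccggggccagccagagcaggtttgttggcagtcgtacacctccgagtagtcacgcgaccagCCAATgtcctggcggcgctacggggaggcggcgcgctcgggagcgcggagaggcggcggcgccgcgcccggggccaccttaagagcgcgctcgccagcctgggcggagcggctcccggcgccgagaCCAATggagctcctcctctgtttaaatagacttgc
Cdkn2b: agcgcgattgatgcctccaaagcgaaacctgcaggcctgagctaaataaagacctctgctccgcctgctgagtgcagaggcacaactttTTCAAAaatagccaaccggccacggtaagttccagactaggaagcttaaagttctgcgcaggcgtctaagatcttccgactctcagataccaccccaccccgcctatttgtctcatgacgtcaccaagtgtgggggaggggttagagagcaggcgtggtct
Cdkn2a: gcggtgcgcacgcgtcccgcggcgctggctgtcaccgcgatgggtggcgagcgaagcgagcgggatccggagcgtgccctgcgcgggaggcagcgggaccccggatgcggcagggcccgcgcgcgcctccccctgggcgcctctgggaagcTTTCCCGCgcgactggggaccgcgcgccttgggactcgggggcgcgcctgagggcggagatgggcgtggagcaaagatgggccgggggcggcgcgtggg

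CCAAT also stood upstream of the start in a window of Ccnd3 (−108) and in Cdkn2d (−220). Cdkn1b held CCAAT at −161 and −35 and again at 46 bases after the start, Cdkn2b had its CHR word at −161 on the opposite strand, and Cdkn2a its E2F word at −99. Both windows of Cdkn1a and the upstream windows of Ccnd3 and Cdkn2c had no match to any word. An E2F word was present in 7 of the 43 windows of the whole set (16.3%), beside 2.85% of all windows, and a TATA box in 1 of 43, beside 12.6%. The set's windows were also richer in G and C, with a median of 64.7% beside 56.3%, and the part of base composition in these shares was not tested. The map of matches by position shows each of them.

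**Figure D1:**
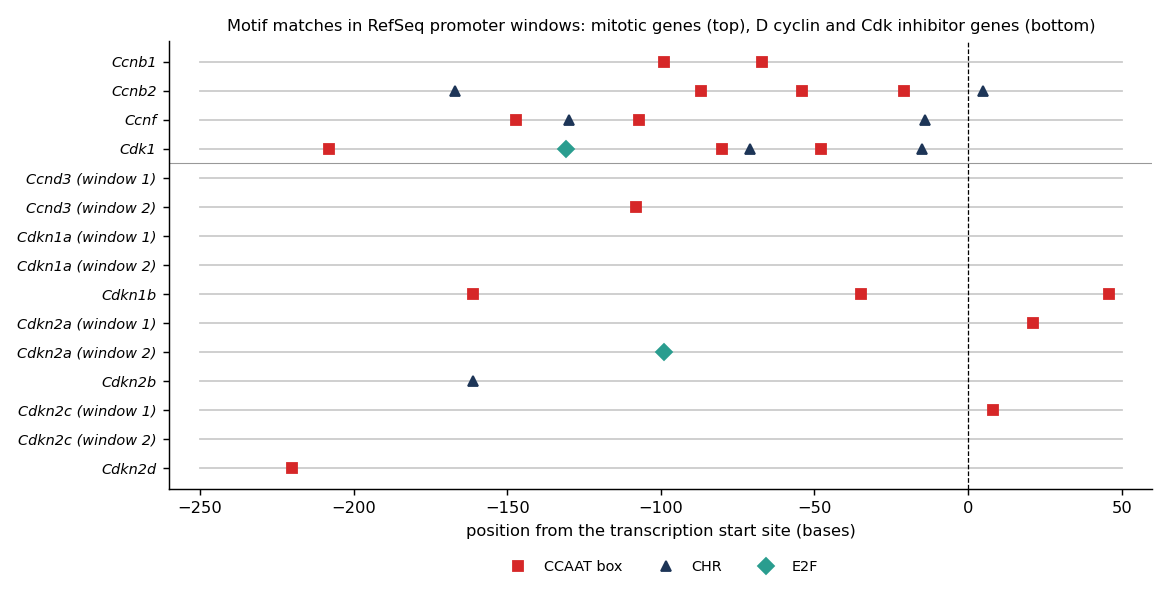
Positions (bases from the transcription start site, x axis) of CCAAT boxes (squares), CHR words (triangles) and E2F words (diamonds) in the RefSeq promoter windows of the 4 mitotic genes (above the line) and of the 7 D cyclin and Cdk inhibitor genes with windows (below it). All 4 mitotic windows hold CCAAT and 3 of 4 hold CHR, against 5 and 1 of the 11 windows below the line, which belong to 5 and 1 of 7 genes.

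At least 1 interaction was listed for 43 of the 45 genes, beside 63.2% of all protein-coding genes, and at least 10 for 22 of 45, beside 27.3%. The median was 9 interactions per gene (range 0 to 76), and that of all genes was 2. The gene counts lay far apart within most roles, as the bar plot of interactions per gene shows. E2f3 (76), Cdk6 (73), Cdk1 (61), Ccng2 (61) and Cdkn2c (55) led the set, although E2f3 has 2 promoter bins and had 38 per bin. Ccnh and Cdk7, which encode the cyclin H and kinase of the Cdk-activating complex, were listed at 0. A promoter bin without an H3K4me3 peak could enter the list only as the partner of a marked bin, and the marked bins were not analysed here.

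**Figure D2:**
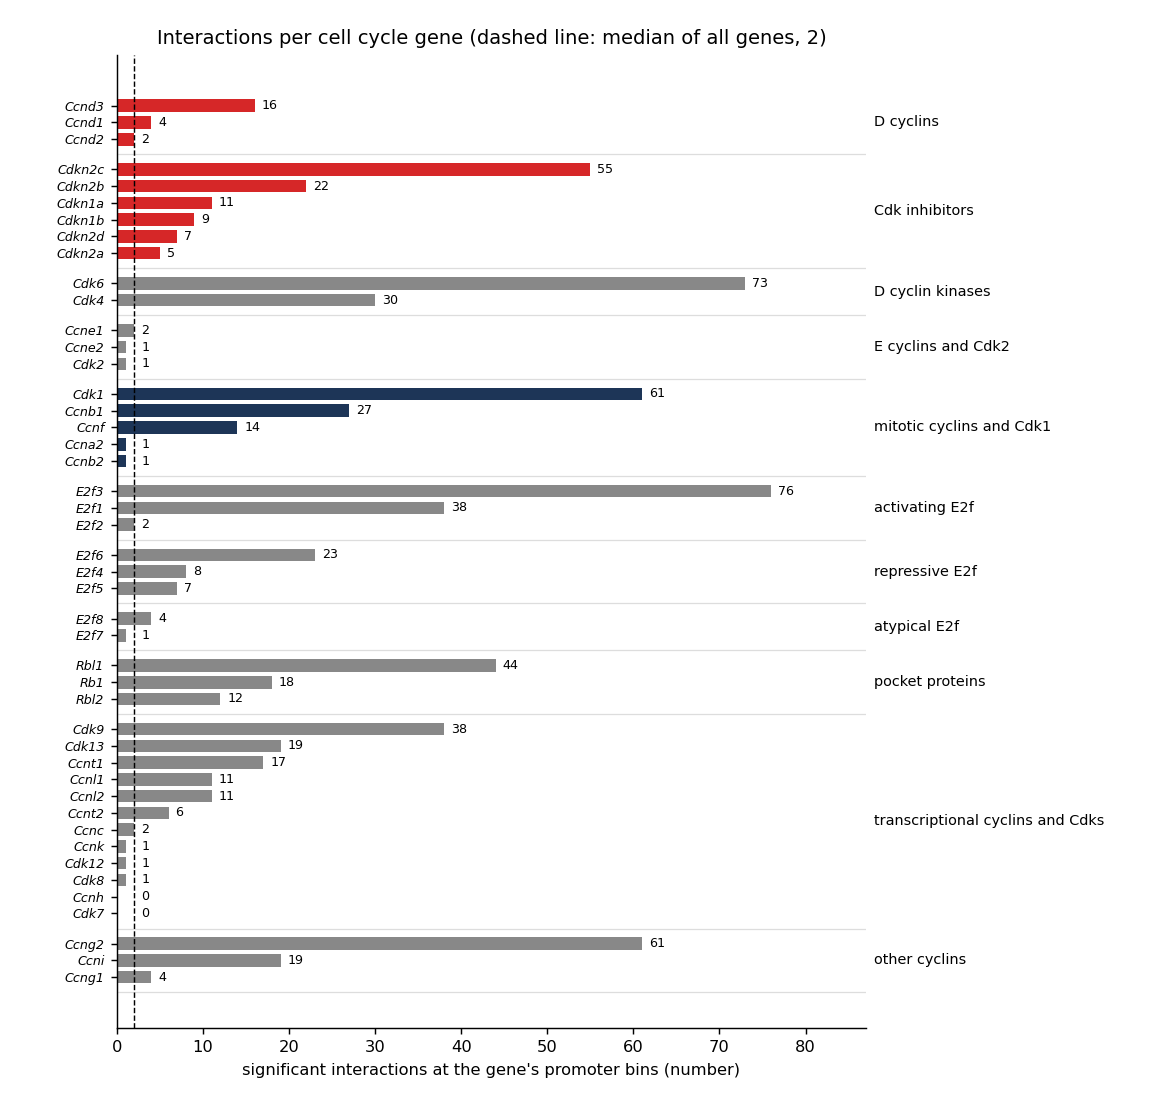
Number of significant interactions at the promoter bins of each of the 45 genes (x axis), grouped by role, with D cyclins and Cdk inhibitors in red, mitotic genes in dark blue and the others in grey; the dashed line is the median of all protein-coding genes, 2. Both coloured groups hold genes near that line and genes far above it, from 2 to 55 in red and from 1 to 61 in dark blue.

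All 3 D cyclin promoters contacted another gene's promoter and a distal bin, but they differed in number. Ccnd1 (promoter bin chr7:144935001-144940000) had 4 interactions, all upstream. The strongest joined it to intergenic sequence 175 kb away (chr7:145110001-145115000, 93.1 kb from the nearest annotated TSS) with 128 read pairs at a ratio of 8.59 (7.16 to 10.2), the highest ratio of the 14 genes compared below, and the others reached an intron of Tpcn2 (6.60 at 260 kb), its promoter (2.94 at 345 kb) and an intergenic bin at 95 kb (2.30). Tpcn2 encodes a lysosomal cation channel. Ccnd2 (chr6:127150001-127155000) had only 2 interactions, with an intergenic bin 180 kb upstream (81 read pairs, 3.67, interval 2.91 to 4.56) and with the Parp11 promoter at 300 kb (80 read pairs, 2.82). Its start site lies 1059 bp from a bin edge, and 7 interactions were counted when bins within 2500 bp of a TSS were included.

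Ccnd3 had the most interactions of the D cyclins, 16 over 3 promoter bins. From the upstream start site (chr17:47505001-47510000), the highest count joined it to the bin that holds the promoters of Bysl, a ribosome biogenesis factor, and Med20, a Mediator subunit, 105 kb downstream (269 read pairs, ratio 5.70, interval 5.03 to 6.42). It also met the promoters of Tomm6 (101 read pairs at 180 kb), Frs3, Guca1b and Ubr2. The highest ratio, 5.83, was found with an intron of Ubr2, 510 kb upstream, on 20 read pairs. Its own promoter bins were joined to each other over 85 kb (124 read pairs, 2.64) and 90 kb (39 read pairs, 2.09).

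Among the Cip/Kip inhibitors the highest counts lay next to the gene. Cdkn1a, a p53 target that arrests the cycle, had 11 interactions over 2 promoter bins. Its outermost start site (chr17:29090001-29095000) alone had 7. With intergenic sequence 10 kb upstream it shared 801 read pairs, the highest count of any gene in the set, at a ratio of 3.57 (3.33 to 3.82), and the highest ratio was 40 kb upstream, between the gene and Srsf3 (355 read pairs, 5.96, interval 5.35 to 6.61). Promoter partners were Stk38, Ppil1 and BC004004. Cdkn1b (chr6:134920001-134925000), which holds resting cells out of the cycle, had 9, of which 8 were upstream: 393 read pairs at 10 kb (2.65), bins in Dusp16, Borcs5 and Mansc1 between 185 and 300 kb at ratios from 2.35 to 2.61, and introns of Etv6 at 720 and 725 kb (3.71 and 3.61). None of them held another promoter. The single downstream contact, 470 kb away and 22.5 kb from the TSS of Emp1, had its highest ratio, 4.08 (2.71 to 5.90). With bins within 2500 bp of the TSS included, Cdkn1b had 23 interactions.

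The 4 INK4 genes ranged from 5 to 55 interactions. Cdkn2a and Cdkn2b, whose outermost start sites lie 16.4 kb apart on chromosome 4, had 5 and 22, and 4 partner bins were shared. The count of Cdkn2a is over 2 promoter bins, and its outermost start site alone had 3. That outer bin (chr4:89290001-89295000) was joined to the exon-bearing bin of Cdkn2b over 15 kb (251 read pairs, 2.30, interval 2.03 to 2.61). The highest ratio of Cdkn2a, 4.58 (2.87 to 6.93), came from its other bin (chr4:89280001-89285000). That contact was with an exon of Mtap, the methionine salvage gene next to the locus, 135 kb downstream. Cdkn2b (chr4:89310001-89315000) had 6 clusters, of which the largest held 8 and 7 bins. In an intergenic stretch 165 to 235 kb upstream (chr4:89475001-89550000) 8 bins were called, at ratios up to 6.50 (4.87 to 8.51) on 53 read pairs at 200 kb, 173 kb from the nearest TSS, Dmrta1. On the other side 7 bins at 155 to 190 kb covered Mtap, including its promoter (61 read pairs, 2.14). Farther downstream were bins at 450 and 455 kb (3.44 and 3.94) and at 625 kb (16 read pairs, 5.33). Intergenic bins made up 17 of the 22 partners of Cdkn2b.

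Cdkn2c (chr4:109665001-109670000) had more interactions than 97.7% of protein-coding genes. Its 55 partners formed 12 clusters, of which the largest joined 22 bins from 90 to 235 kb downstream, over Rnf11 and Ttc39a. The highest ratio was at 215 kb in an exon of Rnf11, which encodes a ubiquitin ligase (104 read pairs, 7.29, interval 5.95 to 8.83), and the bins at 180 and 185 kb had 6.77 and 6.14. Another 17 bins lay within 75 kb, many of them in Faf1 upstream, and the highest count was 421 read pairs with intergenic sequence 15 kb downstream (3.23). Cdkn2d had 7 interactions at ratios from 2.09 to 4.03, with 171 read pairs at the Qtrt1 promoter 120 kb upstream (2.27), 39 at the promoter of the kinase Tyk2 165 kb downstream (2.09), and bins over Keap1, the sensor of oxidative stress, at 60 and 65 kb.

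The 5 mitotic genes fell into those with many interactions and those with 1. Cdk1 (chr10:69350001-69355000), the mitotic kinase, had 61, more than 98.4% of protein-coding genes. Of these, 58 lay downstream, in a region where only 3 other protein-coding genes have a TSS within 500 kb, and 42 partners were intergenic. The highest count was with its own exon-bearing bin at 10 kb (562 read pairs, 4.08, interval 3.75 to 4.44), and the same distance upstream gave 446 read pairs (4.19). Further clusters of 12 and 13 bins lay at 200 to 295 kb and 345 to 460 kb, with ratios up to 4.95 and 6.09. The highest ratio, 7.10 (4.21 to 11.2), rested on 18 read pairs in an intron of Cabcoco1 at 895 kb, and 17 of the 61 interactions spanned over 500 kb.

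Ccnb1 (chr13:100785001-100790000), cyclin B1, had 27 interactions, of which 17 belonged to 1 cluster that reached 50 kb upstream and 90 kb downstream. It covered Slc30a5, a zinc transporter gene (5 bins, up to 197 read pairs and a ratio of 3.20), Cenph, a kinetochore gene (3 bins), Mrps36 (4.06 at 50 kb) and the body of Cdk7 (3 bins at 65 to 75 kb, ratios 2.21 to 3.30). None of the 27 partner bins held another promoter, and Cdk7, whose outermost start site lies 55.6 kb from that of Ccnb1, was itself listed at 0. The highest ratio, 8.13 (5.40 to 11.7), joined Ccnb1 to an intron of Mccc2 at 775 kb on 28 read pairs. Ccnf (chr17:24250001-24255000), cyclin F, which marks substrates for degradation, had 14 interactions at ratios from 2.02 to 3.69. These included 250 read pairs at the Atp6v0c promoter 85 kb downstream (2.79), the Pdpk1 promoter (33 read pairs at 100 kb, 2.03) and 4 bins in Abca17.

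Only 1 interaction each was listed for Ccnb2 and Ccna2. Ccnb2 (chr9:70420001-70425000), cyclin B2, was joined to an intron of Aqp9 at 725 kb on 12 read pairs (ratio 6.77). Ccna2 (chr3:36570001-36575000), cyclin A2, was joined to the D3Ertd254e promoter at 420 kb on 51 read pairs (2.20, interval 1.64 to 2.89). Both had 2 when bins within 2500 bp of a TSS were included. The 4 mitotic promoters printed above had from 1 (Ccnb2) to 61 (Cdk1) interactions.

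**Figure D3:**
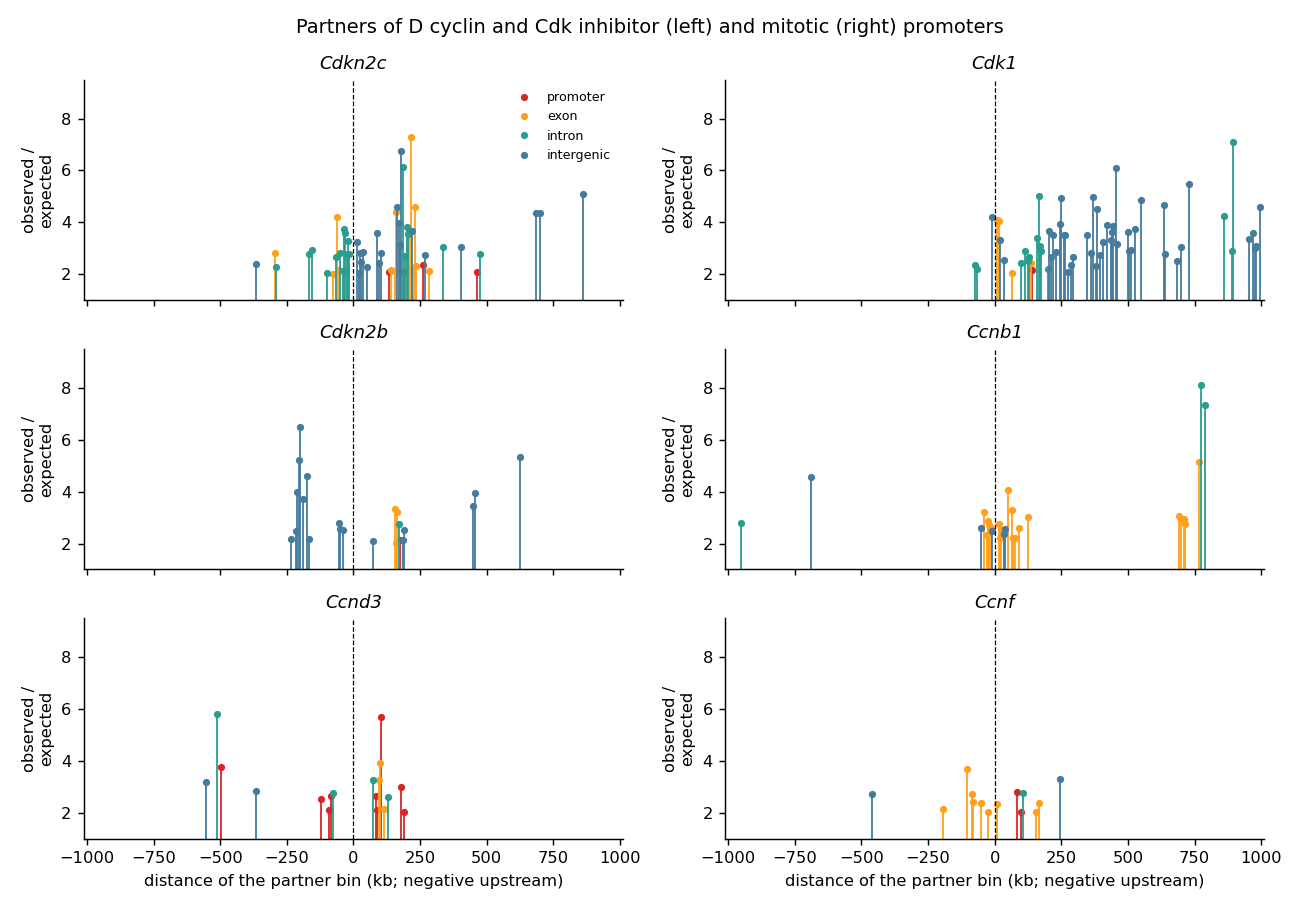
Ratio of observed to expected count (y axis) of every interaction of Cdkn2c, Cdkn2b and Ccnd3 (left) and of Cdk1, Ccnb1 and Ccnf (right) against the distance of the partner bin from the promoter bin (x axis, kb, negative upstream), with points coloured by what the partner bin holds. Of the 61 partners of Cdk1, 58 are on the downstream side, and the Cdkn2b partners gather around 200 kb upstream and around Mtap downstream.

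The D cyclins and Cdk inhibitors had a median of 9 interactions per gene (range 2 to 55, 9 genes) and the mitotic genes a median of 14 (range 1 to 61, 5 genes), and the ranges overlapped over nearly their whole length. Genes are not replicates and the list is pooled, so no test of this difference was made. At least 10 interactions were listed for 4 of 9 and 3 of 5 genes, beside 27.3% of all protein-coding genes. The order of the medians rested on single genes: without Cdk1 or without Ccnb1 the mitotic median was 7.5, and without Ccna2 or without Ccnb2 it was 20.5. It was reversed when only ratios of at least 4 were counted, with medians of 2 and 1. Counted as clusters, the medians were 5 and 6. Median ratios over interactions were 2.79 and 2.91, but ratios rise with distance and the groups differed in distance, so these medians are not directly comparable.

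The kinds of partner were compared by their shares, without a test. Another promoter was the partner in 20 of 131 interactions of the D cyclins and Cdk inhibitors (15.3%, interval 10.1 to 22.4%) and in 4 of 104 of the mitotic genes (3.85%, interval 1.51 to 9.47%), beside 13.4% over all genes. Leaving out single genes kept the first share between 11.3% (without Ccnd3) and 21.1% (without Cdkn2c), and the second between 2.22% (without Ccnf) and 6.98% (without Cdk1). By gene, 7 of 9 and 3 of 5 were joined to another promoter bin at least once, beside 44.4% of all genes. Every compared gene had an interaction, and of the 13093 protein-coding genes with an interaction, 9205 were joined to another promoter bin. Interactions over 500 kb were 9 of 131 (6.87%, interval 3.66 to 12.5%) and 27 of 104 (26.0%, interval 18.5 to 35.1%), beside 17.2% over all genes. Of those 27, Cdk1 gave 17, Ccnb1 9 and Ccnb2 1, and without Cdk1 the share was 23.3%.

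The other contrasts followed Cdk1. Partners lay downstream in 54.2% and 80.8% of interactions, and the mitotic share was 60.5% without Cdk1. The median distance was 170 kb for the D cyclins and Cdk inhibitors and 225 kb for the mitotic genes, and 85 kb for the latter without Cdk1. Intergenic bins were 42.0% and 47.1% of partners, beside 31.9% over all genes, and 16.3% of mitotic partners without Cdk1. The median number of other protein-coding genes with a TSS within 500 kb was 14 in the first group and 10 in the second, with 3 around Cdk1 and 50 around Ccnf, and the part of gene density in the share of promoter partners was not tested. The stacked bars of partner class and distance show these shares.

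**Figure D4:**
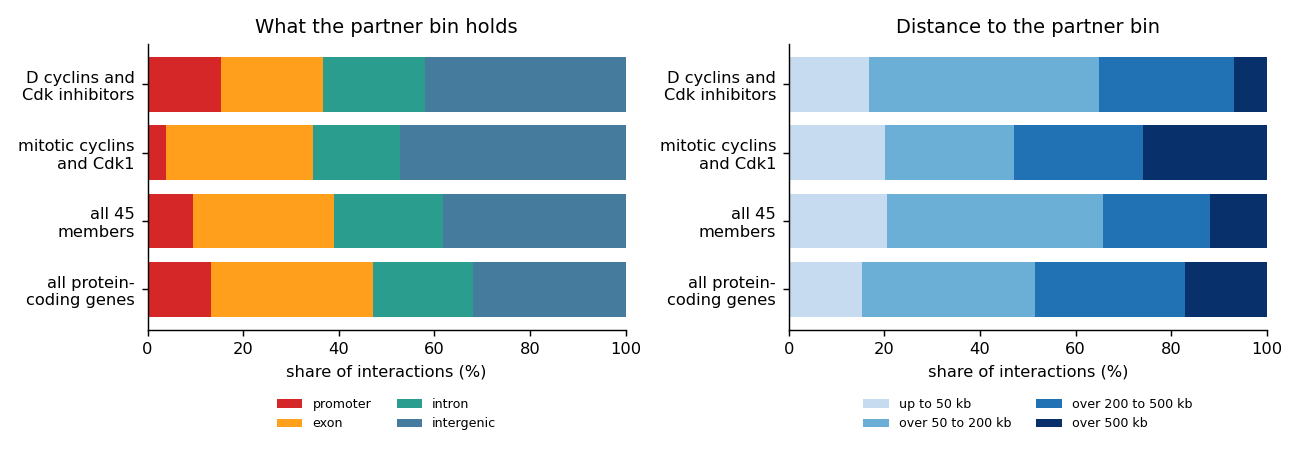
Share of interactions (x axis, %) by what the partner bin holds (left) and by distance (right) for the D cyclins and Cdk inhibitors (131 interactions), the mitotic genes (104), all 45 genes (766 gene ends) and all protein-coding genes (182026 gene ends). Promoter partners make up 15.3% in the top bar and 3.85% in the next, and contacts over 500 kb 6.87% and 26.0%.

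Both kinases of the D cyclins had many interactions. Cdk6 (chr5:3340001-3345000) had 73, and 41 of them had a ratio of at least 4. It was the only gene of the set with a ratio of 10 or more, which 2.69% of all genes reached, and it did so in 5 bins. The highest, 12.8 (8.87 to 17.9), was in intergenic sequence 185 kb upstream on 34 read pairs. Downstream, 189 read pairs were counted at 160 kb in a Cdk6 intron (10.1), and 27 partners lay within the gene itself. The upstream bins are close to the start of the assembled chromosome: the first 3000000 bases of chromosome 5 are unsequenced in the build, and the farthest partner bin begins 105 kb beyond them, so the part of this position in the high ratios was not tested. Cdk4, which shares its promoter bin with March9, had 30 interactions, with 648 read pairs at 10 kb in the Cyp27b1 bin (3.40). Its highest ratio, 4.98 (3.12 to 7.55), rested on its lowest count, 22 read pairs, in an intergenic bin at 570 kb. That bin pair was called alone, outside any larger cluster. The bin lies 7.99 kb from the TSS of Stat6, the transcription factor activated by IL-4. Promoter partners of Cdk4 included Agap2, Ddit3, Dtx3 and Arhgap9. The genes of cyclin E and Cdk2, which act next, had few: 2 for Ccne1 and 1 each for Ccne2 and Cdk2, or 2, 5 and 6 with bins within 2500 bp of a TSS included (the start site of Cdk2 is 29 bp from a bin edge). Ccne1 met intergenic bins only, at 15 kb (123 read pairs, 2.47) and 255 kb (12 read pairs, 6.36, interval 3.29 to 11.1), and Ccne2 an intergenic bin at 105 kb (71 read pairs, 2.19).

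The E2f genes spanned the whole range of the set. Of the activators, E2f3 had 76 interactions and E2f1 38, more than 99.3% and 94.3% of protein-coding genes, but E2f2 had 2. The count of E2f3 is over 2 promoter bins, and its outermost start site alone had 37. E2f3 was joined to the promoter of its neighbour Cdkal1, 130 kb downstream, with both its highest count and its highest ratio (267 read pairs, 5.22, interval 4.61 to 5.88), and 21 partners lay within E2f3 itself. E2f1 contacted 7 promoter-bearing bins, with 397 read pairs at the 1700003F12Rik promoter 20 kb downstream (2.32) and a highest ratio of 8.67 (5.61 to 12.8) at the Efcab8 promoter 790 kb downstream on 25 read pairs. The repressive members E2f6, E2f4 and E2f5 had 23, 8 and 7. For E2f6, 22 of 23 partners were downstream, and the strongest was the Pqlc3 promoter at 190 kb (130 read pairs, 6.68, interval 5.58 to 7.93). E2f4, whose promoter bin also holds the TSS of Exoc3l, had 343 read pairs with the Elmo3 promoter at 10 kb (2.03). The atypical repressors E2f8 and E2f7 had 4 and 1, but E2f8 had 22 with bins within 2500 bp of a TSS included. E2f8 was joined to an intron of Zdhhc13 at 90 kb (138 read pairs, 5.02).

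All 3 pocket protein genes had at least 10 interactions, 44 for Rbl1, 18 for Rb1 and 12 for Rbl2. Rbl1 shared 377 read pairs with an exon of Mroh8 15 kb upstream (2.78) and had its highest ratio in an intron of Blcap at 370 kb (65 read pairs, 5.23, interval 4.04 to 6.67), and it was joined to the promoter of Samhd1, which depletes nucleotides in resting macrophages. Rb1 had lower counts, at most 105 read pairs (an exon of Itm2b at 35 kb, 2.30). Its highest ratio, 6.22 (3.62 to 9.96), was 815 kb downstream on 17 read pairs, and a cluster of 6 intergenic bins lay 125 to 165 kb upstream with ratios up to 5.16.

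**Figure D5:**
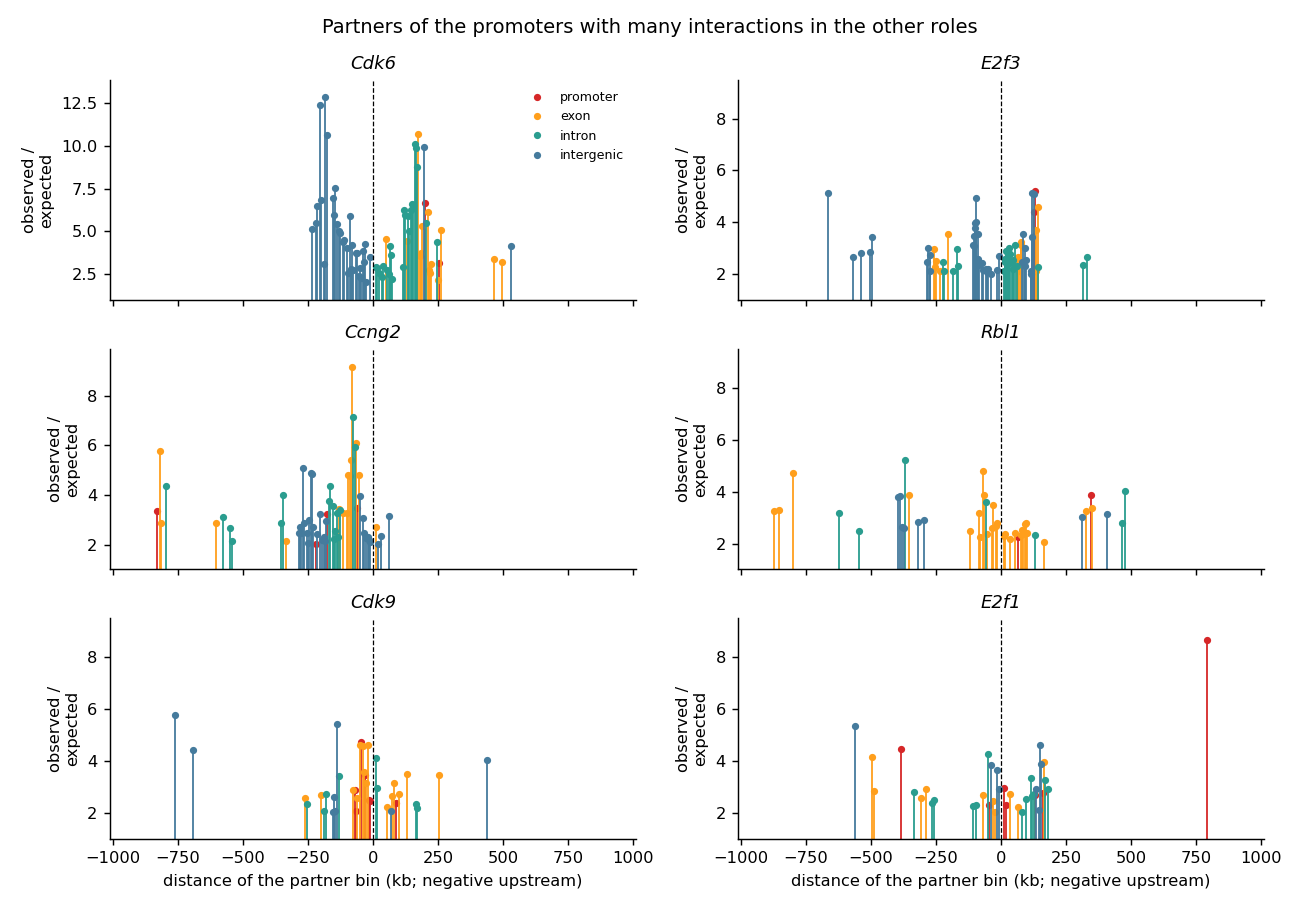
Ratio of observed to expected count (y axis, scaled to each gene) of every interaction of Cdk6, E2f3, Ccng2, Rbl1, Cdk9 and E2f1 against the distance of the partner bin (x axis, kb, negative upstream), with points coloured by what the partner bin holds. Cdk6 has ratios above 10 on both sides of its promoter, and 57 of the 61 Ccng2 partners are upstream.

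The cyclins and Cdks of the transcription machinery had a median of 4 interactions over 12 genes. Cdk9, the kinase that releases paused RNA polymerase II, had 38 and Cdk13, which acts on the same polymerase, 19. Cdk9 was joined to an intron of Fpgs at 10 kb (602 read pairs, 4.13, interval 3.80 to 4.47) and to 7 promoter-bearing bins, and 13 of the 19 partners of Cdk13 lay within the gene itself, with the highest ratio at 55 kb (5.02). Ccnt1 (17), which encodes the partner of Cdk9, Ccnl1 and Ccnl2 (11 each) and Ccnt2 (6) came next, whereas Ccnc had 2, Ccnk, Cdk8 and Cdk12 had 1 each, and Ccnh and Cdk7 none. The counts of Cdk13 and Ccnt1 are each over 2 promoter bins, and their outermost start sites alone had 4 and 3. Ccnt1 also shares a promoter bin with 4930415O20Rik. With bins within 2500 bp of a TSS included, Ccnh had 2 and Cdk7 remained at 0.

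Ccng2 and Ccni were the only 2 genes of the set joined promoter bin to promoter bin. Ccng2 encodes an unconventional cyclin that rises in cell cycle arrest, and Ccni a cyclin abundant in cells that no longer divide. Their outermost start sites lie 60.8 kb apart on chromosome 5 and their promoter bins (chr5:93265001-93270000 and chr5:93205001-93210000) shared 530 read pairs (3.48, interval 3.19 to 3.79), the highest count of either gene. The promoters shared 13 partner bins. Ccng2 had 61 interactions, 49 of them in 1 cluster from 10 to 285 kb, and 57 lay upstream, on the side of Ccni and Sept11. Its highest ratio was 80 kb upstream, in a bin with an exon of Ccni (443 read pairs, 9.16, interval 8.32 to 10.0). Ccni, whose bin is shared with 2010109A12Rik, had 19, with a highest ratio of 6.30 (4.04 to 9.38) in an intron of Shroom3 at 520 kb. Ccng1, a p53 target, had 4.

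The wider cell cycle lists gave medians above that of all genes as well. Over all genes, 63.2% had an interaction and 27.3% had at least 10. Of 25 other genes of the mitotic machinery, all had an interaction and 9 had at least 10 (median 4), led by the spindle checkpoint genes Mad2l1 (49) and Bub1b (30). Of 25 replication genes, 22 had an interaction and 10 had at least 10 (median 7), led by the helicase subunit gene Mcm7 (27) and the licensing inhibitor Gmnn (26). For the Myb-MuvB and DREAM genes these counts were 7 and 5 of 9 (median 11), with Lin9 (22) and Lin37 (21) highest. For 13 genes of the p53 response and growth arrest they were 13 and 7 (median 13). Sesn2 was highest there at 57, followed by Gadd45a and by Cdkn1c, a further Cip/Kip inhibitor, at 31 each. The median distance was 295 kb for the larger mitotic list and 257.5 kb for the replication list. For the DREAM and the p53 lists it was 165 and 167.5 kb, beside 190 kb for all genes. The mitotic cyclins and Cdk1 had 225 kb, and 85 kb without Cdk1.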

How the data were processed

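H3K4me3 HiChIP was done in 4 BMDM samples, grouped by their titles. Bowtie2, bedtools and the mm10 build are named in the submitters' processing notes. By the study's methods, the authors called interactions with MAPS on 5-kb bins of the merged reads, with H3K4me3 ChIP-seq peaks as anchors. The deposited list gives an observed count and an expected count per bin pair, used as deposited. The authors' false discovery rates (adjusted p-values) were all below 0.01 and were used as an alternative filter, and the deposited −log10 p per cluster was not used. The list holds 19 autosomes.

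Promoter bins were bins holding a TSS of a protein-coding GENCODE M21 basic transcript. Positions are in mm10, counted from 1, and distances run between bin starts. Partner bins were classed as promoter, then exon, intron or intergenic. The calculations used Python 3.11.15, pandas 2.3.3, numpy 2.4.6 and scipy 1.17.1, figures matplotlib 3.10.9, and the counting was tested on simulated data. The sequences are from RefSeq. The genes and lists were chosen with earlier results of these data known. Named genes were the 14 compared, the 2 with most interactions in each other role, genes at 0 and joined pairs, and the 2 leading genes of each further list, with a tie for second place. Other genes are given by their counts. The single promoter-bearing partner bin of Cdk1 is counted in the shares, and its values are not reported here.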

Additional observations from a re-analysis of the deposited data

How the results depend on the processing

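At least 1 interaction was listed for between 29 and 44 of the 45 genes under 10 of the 11 other settings, and for 38 of the 40 with an unshared promoter bin, within 1.5 times the 43 reported. Counting clusters or dividing by promoter bins could not change whether a gene had an interaction. Over all genes the share with an interaction ranged from 42.3% (ratio of at least 4) to 70.4% (bins within 2500 bp of a TSS). The median of the D cyclins and Cdk inhibitors (9) and of the mitotic genes (14) became 5 and 9 at a false discovery rate under 1e-06, 2 and 1 at a ratio of at least 4, and 5 and 6 counted as clusters. The first was 5.5 per promoter bin and 4 for the D cyclins alone, and the second was 27 both with bins within 2500 bp of a TSS and for Ccnb1, Ccnb2 and Cdk1 alone. Their difference (−5) was reversed to 1 at a ratio of at least 4. It was −1 by clusters, −8.5 per promoter bin, −15 with bins within 2500 bp, −18 for those 3 mitotic genes and −10 for the D cyclins. The cause of the reversal was not tested. The other settings moved these values by at most 1.5 times.

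The pooled list has no replicate error, so no result here can be set against the spread between samples. An absent interaction was not called at this depth, which is not the same as an absent contact, and a start site near a bin edge divides its reads between bins. No paired analysis was possible because the list pools the replicates.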

Other observations

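Of the 8 E2f and Rb family genes with a RefSeq window, 4 held an E2F word, beside 3.29% of all protein-coding genes with a window. The part of base composition in this share was not tested. Besides Cdk1 and Cdkn2a, the 7 genes with such a word in the RefSeq window were Cdk2, E2f2, E2f3, E2f7 and Rbl1. In Rbl1 it stood at −18 and in E2f3 at −11 from the start site, and in E2f2 at 40 bases after it. These 7 genes had from 1 (Cdk2 and E2f7) to 76 (E2f3) interactions. They were named because of the match, after their counts were known.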
